A study of Mus musculus with 2 samples.

Results

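The 9 genes described here code for molecules with which uterine epithelial cells hold to each other, to the matrix and to the embryo. They are Cdh1, Epcam, Cd24a, Ceacam1, Cd9, Cd44, Spp1, Sdc1 and Sdc4, taken from the table by gene symbol, with earlier results of these data known when the list was drawn up. All 9 had a row in the deposited table of 14678 genes. Pooled uteri were profiled at gestation day 2.5 by digital gene expression (DGE), in which short sequence tags are assigned to genes so that the copies of a gene are the tags assigned to it. All mice were double transgenic (VEGFtetO/tetO/beta-AKtg/wt): the VEGF promoter carried tet operator sites, and a beta-actin promoter drove the tetR-Krab repressor in all tissues, so the repression was not limited to the uterus or to epithelium. Dox+ mice (VEGF-normal) ate chow with 200 mg/kg doxycycline, which keeps the repressor off VEGF. Their Dox- littermates (VEGF-repression) had doxycycline removed at the age of 3 to 4 weeks, and uteri were collected after 6 weeks. Each condition was 1 library made from 6 µg of RNA of 3 pooled uteri, so no difference could be checked against replicates. The repression of VEGF and the absence of doxycycline cannot be told apart.

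Before implantation the luminal epithelium lines the uterine cavity as a polarized sheet sealed by junctions. Cadherins and EPCAM join neighbouring cells, while glycoproteins, proteoglycans and secreted matrix proteins on the apical side can favour or hinder attachment of the blastocyst. Ovarian estrogen and progesterone remodel this surface before the embryo attaches.

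Cd24a and Ceacam1 showed the highest Dox- to Dox+ ratios of the 9 genes. Cd24a rose from 1333 to 7341 copies, which was 5.64-fold, and Ceacam1 had 10 and 54 copies, a ratio of 5.53. Epcam and Spp1 rose 1.80-fold and 1.76-fold, Cd44 was 1.66-fold lower in Dox-, and Sdc1, Cdh1, Cd9 and Sdc4 stayed within a fold of 1.5. A gene was counted as past the fold when its copies in both libraries summed to at least 200 and its share of the clean tags differed at least 1.5-fold. Ceacam1 did not reach 200 copies. Of the other 8 genes 3 were higher in Dox- and 1 was lower, and among all 6547 genes with 200 copies or more 15.2% were higher and 14.7% were lower. At a fold of 2, Cd24a was the 1 gene that was higher and 0 were lower, against 4.61% and 5.62% of all such genes. The median log2 ratio (Dox- over Dox+) was 0.46 for the 8 genes and 0.03 for all 6547.

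**Figure D1:**
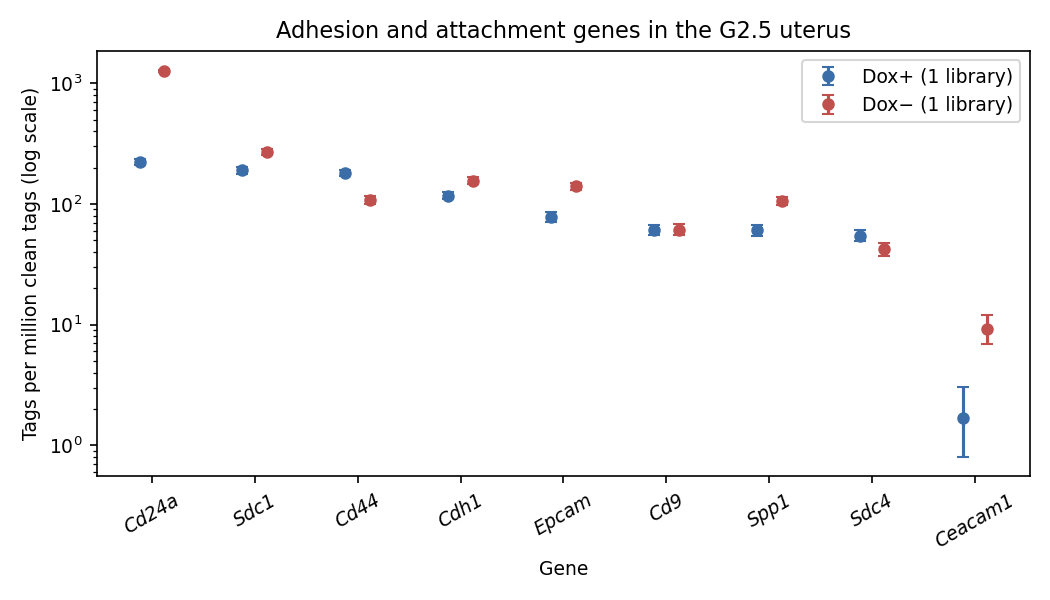
Levels of the 9 genes in TPM (tags per 1000000 clean tags, vertical axis, log scale) in the Dox+ and the Dox- library, ordered by the Dox+ level. Points are the single libraries and bars are 95% exact intervals that cover counting error only. Cd24a stands at 1256 in Dox- against 223 in Dox+, while the points of Cd9 lie at the same height.

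The Dox+ library held 5985925 clean tags and the Dox- library 5844314, of which 74.1% and 72.2% were counted in genes. A count of 3 copies equalled 0.501 and 0.513 TPM (tags per 1000000 clean tags, with no length correction), and 8 of the 9 genes had more than 100 copies in both libraries. The repressed gene itself, Vegfa, had 247 copies in Dox+ and 125 in Dox-. The intervals given with ratios and levels are at 95% by the exact Clopper-Pearson method. They reflect counting error alone, since the variation between mice was not measured. In whole uterus, fewer cells of a type and less RNA per cell cannot be told apart.

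Promoters are shown for the genes past the fold that have an entry in the RefSeq promoter table, and for Ceacam1. Of the 9 genes 7 had an entry, and Cdh1 and Cd24a had none. Each line gives the 250 bases before the transcription start site, 5′ to 3′ on the strand of the gene, on build GRCm38.p6. The windows are chr17:87635729-87635978 (plus strand) for Epcam, chr5:104434861-104435110 (plus) for Spp1, chr7:25477626-25477875 (minus) for Ceacam1 and chr2:102901666-102901915 (minus) for Cd44. Capitals mark matches, on either strand, to 1 of 6 searched words.
Epcam: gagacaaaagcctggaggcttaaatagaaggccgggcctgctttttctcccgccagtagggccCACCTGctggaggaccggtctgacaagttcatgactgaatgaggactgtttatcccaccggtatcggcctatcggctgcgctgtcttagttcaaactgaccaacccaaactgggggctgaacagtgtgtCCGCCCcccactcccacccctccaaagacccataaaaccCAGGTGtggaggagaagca
Spp1: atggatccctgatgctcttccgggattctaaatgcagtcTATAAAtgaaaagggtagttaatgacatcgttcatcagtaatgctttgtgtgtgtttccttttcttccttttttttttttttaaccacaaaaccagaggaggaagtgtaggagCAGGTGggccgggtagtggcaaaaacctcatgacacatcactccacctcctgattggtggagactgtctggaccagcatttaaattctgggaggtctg
Ceacam1: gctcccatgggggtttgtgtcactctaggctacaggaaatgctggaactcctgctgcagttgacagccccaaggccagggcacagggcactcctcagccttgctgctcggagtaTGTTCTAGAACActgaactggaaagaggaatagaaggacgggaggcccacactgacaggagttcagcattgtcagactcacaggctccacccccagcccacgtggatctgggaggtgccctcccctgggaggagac
Cd44: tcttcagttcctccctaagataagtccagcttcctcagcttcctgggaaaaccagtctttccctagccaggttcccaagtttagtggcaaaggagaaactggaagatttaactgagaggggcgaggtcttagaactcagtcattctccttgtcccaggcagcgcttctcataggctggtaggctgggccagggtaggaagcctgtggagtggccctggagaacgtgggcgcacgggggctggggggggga

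The words were the GC box GGGCGG, the TATA box TATAAA, the AP-1 site TGANTCA, the Snail-type E-box CACCTG, and the half-sites AGGTCA of the estrogen receptor and TGTTCT of the progesterone receptor. Epcam held 2 E-boxes, 187 to 182 and 19 to 14 bases before the start, and 1 GC box. Spp1 had 2 windows in the promoter set, of which 1 is printed. It held 1 match to the TATA box, 211 to 206 bases before the start, and 1 E-box, 98 to 93 bases before it. Ceacam1 held 2 matches to the progesterone receptor half-site that touch each other on opposite strands, 136 to 125 bases before the start. The Cd44 window held no match to any of the 6 words, which says only that these letters are not in it. Among the members whose promoters are not printed, Cd9 held 2 GC boxes and 1 E-box, Sdc1 held 3 GC boxes, and Sdc4 held 4 GC boxes and 1 estrogen receptor half-site. Of all 32851 promoters of that set, 32.7% held a GC box, 12.4% a TATA box, 6.75% an AP-1 site, 17.2% an E-box, 14.0% the estrogen receptor half-site and 16.1% the progesterone receptor half-site. A match is a description of the letters and not a binding site. The GC content was 43.6% for the Spp1 window and 56.4% to 68.0% for the other 6 windows, against a median of 52.4% over all promoters.

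Cd24a codes for a small, heavily glycosylated surface protein held by a lipid anchor, a ligand of P-selectin and of Siglec receptors. The gene (ID 12484) lies at chr10:43298975-43304068 on the plus strand of NCBIM37, the build called mm9. Its level was 223 TPM in Dox+ (211 to 235) and 1256 TPM in Dox- (1228 to 1285). The ratio of 5.64 had a counting interval of 5.32 to 5.98 and was larger than 99.5% of the ratios of the 6547 genes. It made Cd24a 58.4% of the tags of the 9 genes in Dox-, up from 23.1% in Dox+. Summed over the 9 genes, copies went from 5780 to 12562, a ratio of 2.23 (2.16 to 2.30). Without Cd24a the other 8 genes went from 4447 to 5221 copies, a ratio of 1.20 (1.16 to 1.25). Most of the increase in the sum was thus Cd24a.

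Of the listed selectins, mucins and CD24 ligands, 6 of 9 had a row and 2 reached 200 copies. Both were mucins, and both rose: Muc1, a large glycoprotein of the apical glycocalyx, went from 260 to 650 copies (2.56-fold), and Muc4, another membrane mucin, from 66 to 270 (4.19-fold).

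Cdh1 codes for E-cadherin, the calcium-dependent receptor of epithelial adherens junctions. It lies at chr8:109127251-109194146 on the plus strand (NCBIM37; ID 12550). Cdh1 had 703 copies in Dox+ and 909 in Dox-, or 117 and 156 TPM. The ratio was 1.32 with a counting interval of 1.20 to 1.46, above 1 but short of the fold of 1.5. Among its cytoplasmic partners, beta-catenin (Ctnnb1), which links E-cadherin to alpha-catenin, had 2319 and 1734 copies, a ratio of 0.766. Alpha-catenin (Ctnna1) had 578 and 770 copies, a ratio of 1.36, and vinculin (Vcl), which binds actin at junctions, had 1518 and 1025, a ratio of 0.692. None of these 3 passed the fold, and they differed in direction. Of the 9 catenins and nectins with 200 copies or more 1 was higher and 1 lower, with a median log2 ratio of -0.08. Only 2 other listed cadherins reached 200 copies. Cdh5, the cadherin of endothelial junctions, fell from 446 to 216 copies, while the mesenchymal Cdh11 had 1638 and 1532.

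Epcam codes for an epithelial cell adhesion molecule that binds claudin-7 and is cleaved in steps by ADAM and gamma-secretase proteases. It lies at chr17:88035319-88050446 on the plus strand (NCBIM37; ID 17075). Epcam rose from 467 to 821 copies, or from 78.0 to 140.5 TPM, a ratio of 1.80 (1.61 to 2.02). Within each library it was 0.664 of Cdh1 in Dox+ and 0.903 in Dox-, so it gained 1.36-fold on Cdh1 (1.17 to 1.58). Its partner Cldn7, a claudin of the lateral membrane, rose from 877 to 2263 copies, or 2.64-fold, and the ratio of Epcam to Cldn7 changed by a factor of 0.681 (0.594 to 0.782). The proteases Adam10 and Psen2 had ratios of 1.22 and 1.23 and did not pass the fold. In the list of EPCAM partners 3 of 5 genes with 200 copies or more were higher and 0 were lower, with a median log2 ratio of 0.59.

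Ceacam1 codes for an apical glycoprotein of the immunoglobulin superfamily that binds itself on neighbouring cells and signals through the phosphatases SHP-1 and SHP-2. It lies at chr7:26246721-26262644 on the minus strand (NCBIM37; ID 26365). Its 10 copies in Dox+ equalled 1.67 TPM (0.801 to 3.07) and its 54 copies in Dox- equalled 9.24 TPM (6.94 to 12.1). The ratio of 5.53 had a counting interval of 2.79 to 12.2, the widest of the 9 genes. The assignment of these tags is uncertain, because 65.6% of the 21-base words of the Ceacam1 transcripts also occur in other protein-coding genes. Nearly all of those words occur in its paralog Ceacam2, which had no row in the deposited table. How tags common to both genes were assigned is not given in the sources used here, beyond the statement that unambiguous tags were counted. For the other 8 genes that share was 0.0558% to 2.96%, and pseudogenes were not compared. Of the listed CEACAM relatives and phosphatases only Ptpn11, the gene of SHP-2, reached 200 copies, with 451 and 557, a ratio of 1.26.

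Cd9 codes for a tetraspanin, a membrane organizer that groups integrins and other receptors. It lies at chr6:125410284-125444809 on the minus strand (NCBIM37; ID 12527). Cd9 had 365 copies in Dox+ and 358 in Dox-, or 61.0 and 61.3 TPM, and it was the 1 gene of the 9 whose interval included 1 (ratio 1.005, 0.866 to 1.17). The interval leaves room for a change of up to 1.17-fold from counting alone. Cd63, a tetraspanin of late endosomes, had 5597 and 5969 copies, a ratio of 1.09. Cd81, a frequent partner of CD9, had 2077 and 1601, a ratio of 0.790, and Tspan3 had 1312 and 1161, a ratio of 0.906. The 18 tetraspanins and partners with 200 copies or more had a median log2 ratio of 0.13, with 3 higher and 1 lower.

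Cd44 codes for the main hyaluronan receptor, which is tied to actin through ezrin, radixin and moesin and is carried by stromal cells and leukocytes as well as by epithelium. It lies at chr2:102651298-102741822 on the minus strand (NCBIM37; ID 12505) and has 14 annotated transcripts, which the gene-level counts do not separate. Cd44 fell from 1078 to 633 copies, or from 180 to 108 TPM. The inverse ratio was 1.66 (1.51 to 1.84), and 10.4% of the 6547 genes had a lower Dox- to Dox+ ratio. Cd44 and Cd24a moved in opposite directions, so that Cd44 had 0.809 copies per copy of Cd24a in Dox+ and 0.0862 in Dox-. Ezrin (Ezr), found at the apical side of epithelia, rose from 297 to 542 copies (1.87-fold). The related Rdx had 1094 and 795 copies and Msn had 577 and 395, ratios of 0.744 and 0.701 that did not pass the fold. Of the 6 hyaluronan genes and linkers with 200 copies or more 1 was higher and 0 were lower, with a median log2 ratio of -0.14.

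Spp1 codes for osteopontin, a secreted phosphoprotein whose RGD motif binds integrins and which also binds CD44. It lies at chr5:104864137-104870069 on the plus strand (NCBIM37; ID 20750). Spp1 rose from 361 to 622 copies, or from 60.3 to 106 TPM, a ratio of 1.76 (1.55 to 2.01). Macrophages and natural killer cells also make osteopontin, and the summed leukocyte markers were 93.7 TPM in Dox+ and 131 TPM in Dox-, a ratio of 1.40. None of the 10 leukocyte markers was at 0 in either library. The natural killer marker among them, Ncr1, went the other way, from 37 to 18 copies, a ratio of 0.498 (0.267 to 0.898), and the part of these cells in the Spp1 result was not tested. Among its receptors Itgb1, the common beta 1 subunit, had 1863 and 1992 copies, a ratio of 1.10, and Itgav had 379 and 484, a ratio of 1.31. Itga5, the alpha chain of the fibronectin receptor, fell from 640 to 328 copies, or 1.91-fold. Itgb3, which pairs with the alpha v chain, rose from 255 to 538 copies, and it is named here because it was seen to be the 1 gene past the fold as higher among the receptor genes with 200 copies or more. Below that count Itgb6 had 32 and 76 copies. The 7 receptor genes with 200 copies or more had a median log2 ratio of 0.03, equal to that of all genes.

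Sdc1 and Sdc4 code for syndecans, membrane proteoglycans whose heparan sulfate chains hold growth factors and matrix proteins. Sdc1 is the main syndecan of epithelia and lies at chr12:8778129-8800521 on the plus strand (NCBIM37; ID 20969). It had 1135 copies in Dox+ and 1578 in Dox-, or 190 and 270 TPM. Among the ratios above 1, its ratio of 1.42 (1.32 to 1.54) was the nearest below the fold of 1.5, and Spp1 was the nearest above it. Cd44, 1.66-fold lower in Dox-, was nearer to the fold than Spp1. Sdc4, the syndecan of focal adhesions, lies at chr2:164249747-164269387 on the minus strand (NCBIM37; ID 20971). It had 328 and 246 copies, or 54.8 and 42.1 TPM, a ratio of 0.768 (0.649 to 0.909). The intervals of both syndecans excluded 1, on opposite sides. The Sdc1 to Sdc4 ratio within a library was 3.46 in Dox+ and 6.41 in Dox-, a change of 1.85-fold (1.55 to 2.22). In the list of other syndecans, glypicans and heparan sulfate genes 0 of 11 genes were higher and 3 were lower, with a median log2 ratio of -0.30. Hspg2, the basement membrane proteoglycan perlecan, fell from 1067 to 637 copies, while the adaptor Sdcbp had 1705 and 1533 and the glypican Gpc1 had 649 and 453.

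**Figure D2:**
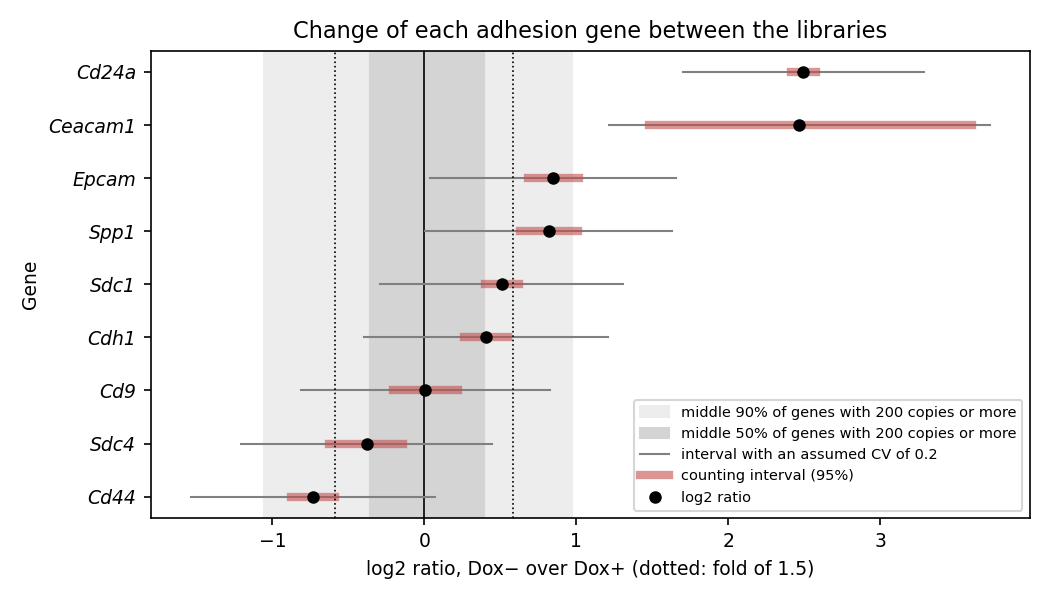
The log2 ratio of Dox- over Dox+ (horizontal axis) of each of the 9 genes. Thick bars are 95% counting intervals, thin lines add an assumed coefficient of variation (CV) of 0.2 between pools, shaded bands hold the middle 50% and 90% of the 6547 genes with 200 copies or more, and dotted lines mark a fold of 1.5. Cd24a and Ceacam1 lie to the right of both bands, and Cd9 lies at 0.01. Ceacam1, with 64 combined copies, is not among the genes of the bands, so its place beside them is not a like comparison.

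The counting intervals lay above 1 for 6 of the 9 genes and below 1 for 2. The same share was not computed over all genes, so these counts cannot be read as a trait of the 9. At high copies a small ratio is enough, as for Cd63 at 1.09 (1.05 to 1.13). No spread between pools was measured. With an assumed CV of 0.2 between pools in each library, the interval of Cd24a was 3.25 to 9.80, that of Epcam 1.03 to 3.15 and that of Spp1 1.004 to 3.10, while the interval of Cd44 was 0.344 to 1.05 and included 1. With a CV of 0.4, the intervals of Cd24a and Ceacam1 still lay above 1 and the other 7 included it.

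The order of the levels was read per kilobase of the longest annotated transcript, in TPM per kb. In Dox+ the order was Cd24a at 123, Sdc1 at 60.1, Cd9 at 49.7, Spp1 at 40.0, Epcam at 38.2, Cd44 at 32.1, Cdh1 at 26.5, Sdc4 at 22.3 and Ceacam1 at 0.447. In Dox- it was Cd24a at 693, Sdc1 at 85.5, Spp1 at 70.6, Epcam at 68.9, Cd9 at 49.9, Cdh1 at 35.1, Cd44 at 19.3, Sdc4 at 17.1 and Ceacam1 at 2.47. Cd9 thus stood above Spp1 and Epcam in Dox+ and below them in Dox-, and Cd44 stood above Cdh1 in Dox+ and below it in Dox-. The counting intervals of Spp1 and Epcam overlapped in both libraries, as did those of Cdh1 and Sdc4 in Dox+ and of Cd44 and Sdc4 in Dox-. If each transcript yields a single tag, as DGE intends, division by length lowers long genes in this order, and the change of place of Cd9 depends on it. Without the division Epcam, at 78.0 TPM in Dox+ and 140.5 in Dox-, stood above Cd9, at 61.0 and 61.3 TPM, in both libraries, and Cd9 and Spp1 (60.3 TPM) were level in Dox+.

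The uteri were not separated into cell types, so the 9 genes were set beside marker lists. The sums of the epithelial markers were 1472 TPM (Dox+) and 2025 TPM (Dox-), a ratio of 1.38, and no marker was at 0 in either library. Of 13 epithelial markers with 200 copies or more 6 were higher and 2 were lower, with a median log2 ratio of 0.43. The keratins Krt19, with 1554 and 2046 copies, and Krt8, with 1330 and 1481, did not pass the fold. Krt18, with 675 and 856, did not pass it either, whereas Krt7 rose from 179 to 600 copies (3.43-fold). The epithelial markers did not move as a unit, since Cldn3 fell from 1482 to 494 copies and Elf3, an epithelial transcription factor, rose from 185 to 1083. These last genes were chosen after their values were seen.

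Of 6 listed gland markers 3 had a row, and their sums were 199.5 TPM (Dox+) and 480 TPM (Dox-). Lactoferrin (Ltf), an estrogen-responsive secretory protein, held 151 and 452 TPM of these sums and rose from 905 to 2639 copies. Cxcl15 fell from 254 to 134, and Foxa2, below 200 copies, had 35 and 34. The rise of the sum was thus that of Ltf alone. Myometrial markers went from 5256 to 3613 TPM, with Cnn1, a smooth muscle actin-binding protein, at 4866 and 2851 copies, Tagln at 11417 and 8854 and Myh11 at 4609 and 3169. Stromal markers summed to 8487 and 9587 TPM, while the median log2 ratio of the 8 stromal genes was -0.50. The sum followed Col1a1, at 23017 and 33696 copies, whereas Col3a1 had 18514 and 17098 and Vim fell from 2612 to 1680. Of the 8 stromal genes 0 were higher, 3 were lower and 5 were neither. Col1a1, with a ratio of 1.499, and Nr2f2, 1.497-fold lower, fell just short of the fold on opposite sides. Besides Vim the genes past the fold as lower were Hoxa10, at 3120 and 1060 copies, and Hand2, at 985 and 143. Nr2f2, Hoxa10 and Hand2 were named after their values were seen. Endothelial markers summed to 165 and 121 TPM, with Cdh5 lower as given above and Pecam1 at 243 and 253 copies. Below 200 copies, Emcn had 108 and 64 and Tek 87 and 51, while Eng had 92 and 104 and Kdr 10 and 17. Leukocyte Csf1r had 186 and 181 copies and Lyz2 had 127 and 169. The other 8 leukocyte markers had under 200 copies each, with Ptprc, the pan-leukocyte CD45, at 49 and 130, Itgam at 45 and 97 and the natural killer receptor Ncr1 at 37 and 18, named after their values were seen. Mesothelial markers summed to 69.0 and 31.1 TPM, with Wt1 at 325 and 157 copies.

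**Figure D3:**
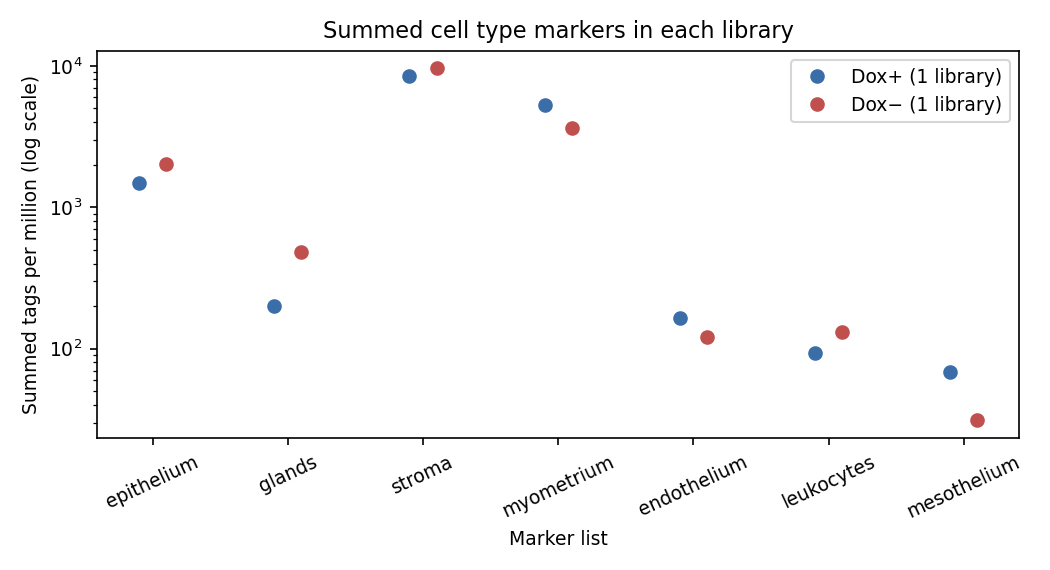
Summed level of each cell type marker list in TPM (vertical axis, log scale) in the Dox+ and the Dox- library, 1 point per library. Epithelial markers stand at 1472 and 2025 and myometrial markers at 5256 and 3613.

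Set against the sum of Krt8, Krt18 and Krt19, which had 3559 copies in Dox+ and 4383 in Dox-, the ratios of all genes shift down by 0.34 on the log2 scale. This scaling was chosen after seeing the data, and Krt7, at 179 and 600 copies, was not in the sum. Cd24a then had a log2 ratio of 2.16 and stayed past the fold, Epcam (0.51) and Spp1 (0.48) did not, Cdh1 stood at 0.07, and Cd44 (-1.07) and Sdc4 (-0.72) were past it as lower. The part of tissue composition in these results was not tested.

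**Figure D4:**
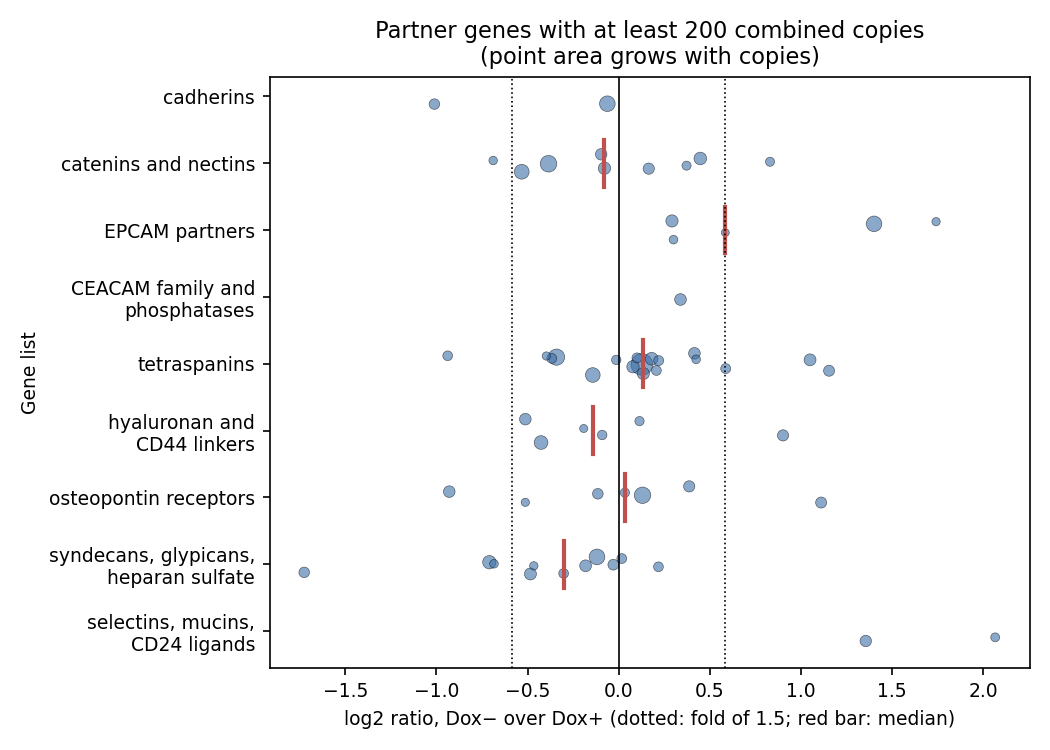
The log2 ratio of Dox- over Dox+ (horizontal axis) of the partner genes with 200 copies or more, by list. Each point is a gene, its area grows with its copies, red bars are medians of lists with at least 3 such genes, and dotted lines mark a fold of 1.5. EPCAM partners have the highest median, 0.59, and syndecans, glypicans and heparan sulfate genes the lowest, -0.30.

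Over all partner lists 103 of 117 listed genes had a row and 61 of them reached 200 copies. Of these 11 were higher, 7 were lower and 43 were neither, with a median log2 ratio of 0.03, the same as that of all 6547 genes. The plot of partner genes by list shows both directions in most lists.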

How the data were processed

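DGE libraries of whole uterus were made from 1 pool of 3 uteri per condition. The authors removed adaptor-only, low quality and once-seen tags, mapped clean tags to reference transcripts, and deposited unnormalized counts of unambiguous tags per gene. The deposited TPM is the count per 1000000 clean tags, written as 0.01 at a count of 0. Processing notes name CASAVA and mm9. The aligner and enzyme are not given in the sources used here. The labels mention fragmented mRNA, the methods DGE tags, and the counts were read as tags. The deposited table also holds the authors' comparisons (ratios, log2 ratios, P-values, FDR), which were not used. Antisense tags were not analysed here.

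Clean tag totals were recovered from the counts and TPM of the table and used as library sizes, without a pseudocount. With 1 library per condition, no test was possible and no p-value is given. Named genes were the 9 genes and, in each partner or marker list, the 3 with the most copies among those with at least 200. Some further genes were named after their values were seen. The members and lists were chosen with earlier results of these data known. Positions came from GENCODE on NCBIM37, and promoters from RefSeq. Alternatives used edgeR 4.0.16 and DESeq2 1.42.0 scaling factors (R 4.3.3), a pseudocount of 1, other copy and fold thresholds, and assumed CVs of 0.1, 0.2 and 0.4. Intervals came from scipy 1.17.1 (Python 3.11.15) and were tested on data simulated with counting error alone. That check of the code says nothing of the spread between pools, which was not simulated.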

Additional observations from a re-analysis of the deposited data

How the results depend on the processing

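With 1 library per condition, the spread between mice is unknown, and depth limits Ceacam1 most. Scaling by summed counts, TMM or median ratios, a pseudocount of 1, and TPM in place of counts left all 45 log2 values of the 9 genes inside their counting intervals, with shifts of at most 0.11 for Ceacam1 and 0.04 for the others. The genes past a fold of 1.5 were 3 higher and 1 lower, and at a fold of 2 they were 1 and 0. Without a copy filter 4 were higher, Ceacam1 included, and at an absolute log2 ratio above 0.5 also 4, with Sdc1 (0.51) added. Scaling by the keratin sum, chosen after seeing the data, gave 1 higher and 2 lower, with log2 ratios of 0.070 for Cdh1, 0.51 for Epcam, 2.16 for Cd24a, -0.33 for Cd9, -1.07 for Cd44, 0.48 for Spp1, 0.17 for Sdc1 and -0.72 for Sdc4. This follows from its larger Dox- divisor. The intervals below 1 went from 2 genes to 1 at an assumed CV of 0.1, 0 at 0.2 and 0 at 0.4, and those above 1 from 6 to 2 at 0.4, since a larger assumed CV widens every interval. With a minimum of 100 combined copies, which admits more genes, 17 partner genes were higher in place of 11 and 10 were lower in place of 7. Under TMM and median ratios 9 were higher and 7 lower. No paired analysis was possible because each condition is a single pooled library.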

Other observations

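The gene ontology (GO) annotation in the table gives other adhesion groups, chosen after seeing the data. It assigned 155 genes to cell-cell adhesion, among them Cdh1. Of the 54 with 200 copies or more 15 were higher in Dox-, 16 were lower and the median log2 ratio was 0.10. The group named cell adhesion, to which 0 of the 9 genes were assigned, had 52 such genes with 10 higher and 8 lower and a median of 0.006. Cell-substrate adhesion, which included Cd44, had 33 such genes with 3 higher and 7 lower. Genes of the cell surface, which included Cd24a and Cd44, had 46 such genes with 13 higher and 9 lower. The apical junction complex, which included Epcam, had 38 such genes with 11 higher and 12 lower, and 11 of the 12 were at least 2-fold lower. Over all 6547 genes with 200 copies or more 15.2% were higher, 14.7% were lower and 5.62% were at least 2-fold lower. No GO group was compared with chance.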
